A study of Drosophila melanogaster with 2 samples.

Results

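The cytoplasmic ribosomal protein genes were followed through the peak lists of a chromatin immunoprecipitation sequencing experiment on lame duck (lmd), a zinc finger transcription factor of Drosophila melanogaster known for its role in fusion-competent myoblasts. The 2 samples, biological replicates 1 and 2 of 1 group, were whole embryos of 0 to 18 hours from a strain that carries lmd fused to eGFP, and the fusion protein was precipitated through GFP. All embryos carried the fusion, all embryonic cell types were mixed, and the labels name neither the promoter of the transgene nor the sex. The control libraries were not analysed here. The genes were selected on their symbols, RpL or RpS followed by a digit, P or A, which gave 92 of the 13945 protein-coding genes on the main chromosome arms, 54 of the large and 38 of the small subunit. Their peaks were taken from the conservative set, the peaks called on both replicates together that passed the authors' comparison of the replicates. The group was chosen by its frequency of summits in that same set, so the values are given as a description with no test, beside those of all genes.

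The cytoplasmic ribosome joins a large subunit, which forms peptide bonds, to a small subunit, which decodes the messenger RNA. Its protein genes are transcribed strongly in growing cells, and in flies many of them are known as haploinsufficient Minute loci. Their promoters are known for a pyrimidine-rich initiator at the start site, the TCT motif, and for binding of DREF and M1BP, zinc finger factors of housekeeping promoters. A transcription start site is written TSS below, and a summit is the position of highest signal within a peak.

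Start regions of 8 genes are printed on the transcribed strand, from at most 200 bases before to 20 after the start nearest to the summit (or, without a summit, the start of the canonical transcript). A stretch is shorter where another exon begins. The sequence is the Release 6 genome from RefSeq. Capitals mark the DREF word TATCGATA, the M1BP word GGTCACACT in either direction and the TCT initiator, searched as CTTTC or CTTTT beginning within 5 bases of the start. The first 4 genes had the highest signal. The next 2 held a DREF word at the summit, and the last 2 had no summit in any thresholded set.
RpL32, chr3R:30046141-30046361, minus strand: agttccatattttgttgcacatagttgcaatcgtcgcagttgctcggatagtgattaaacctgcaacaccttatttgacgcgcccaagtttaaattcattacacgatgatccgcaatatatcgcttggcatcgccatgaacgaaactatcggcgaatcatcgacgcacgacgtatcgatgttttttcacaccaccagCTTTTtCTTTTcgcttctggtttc
RpS27, chr3R:25247494-25247657, minus strand: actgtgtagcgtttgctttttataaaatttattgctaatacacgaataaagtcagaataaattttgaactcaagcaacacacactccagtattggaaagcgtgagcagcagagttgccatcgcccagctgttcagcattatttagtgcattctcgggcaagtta
RpL34b, chr3R:9401206-9401426, minus strand: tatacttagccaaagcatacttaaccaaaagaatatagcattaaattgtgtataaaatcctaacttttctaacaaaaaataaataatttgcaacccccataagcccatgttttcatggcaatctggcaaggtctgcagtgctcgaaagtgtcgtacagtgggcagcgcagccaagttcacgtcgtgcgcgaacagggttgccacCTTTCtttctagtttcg
RpL7, chr2L:10200975-10201024, plus strand: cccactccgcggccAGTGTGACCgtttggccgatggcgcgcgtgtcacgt
RpL28, chr3L:3222940-3223160, minus strand: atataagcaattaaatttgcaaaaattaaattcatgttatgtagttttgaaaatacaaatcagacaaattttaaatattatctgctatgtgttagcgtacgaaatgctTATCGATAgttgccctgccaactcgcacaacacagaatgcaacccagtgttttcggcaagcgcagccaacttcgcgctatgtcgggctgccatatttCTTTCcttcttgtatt
RpL26, chr3L:18898675-18898895, plus strand: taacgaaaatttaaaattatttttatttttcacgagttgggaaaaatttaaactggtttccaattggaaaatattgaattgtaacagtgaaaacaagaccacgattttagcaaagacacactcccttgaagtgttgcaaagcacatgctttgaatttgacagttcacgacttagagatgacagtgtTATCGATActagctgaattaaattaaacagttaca
RpL10, chr3L:23095451-23095671, minus strand: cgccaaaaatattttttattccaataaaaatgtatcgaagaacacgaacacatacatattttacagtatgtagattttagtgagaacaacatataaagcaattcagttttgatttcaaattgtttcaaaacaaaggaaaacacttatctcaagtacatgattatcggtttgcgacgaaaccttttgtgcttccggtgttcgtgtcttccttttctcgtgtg
RpL10Aa, chr3R:15037166-15037386, plus strand: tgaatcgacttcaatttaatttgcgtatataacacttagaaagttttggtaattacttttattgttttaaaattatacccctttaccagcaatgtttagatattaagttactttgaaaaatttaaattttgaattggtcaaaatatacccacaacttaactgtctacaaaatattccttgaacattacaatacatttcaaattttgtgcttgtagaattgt
In these stretches RpL32, RpL34b and RpL28 held a TCT initiator, RpL7 the M1BP word, and RpL28 and RpL26 the DREF word. RpS27, RpL10 and RpL10Aa held none of them.

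More than 1 in 2 of the ribosomal protein genes had a summit at their own start. A summit lay within 500 bp of an own TSS at 52 of 92 genes (56.5%), where the share of all protein-coding genes, these included, was 17.2%. In the wider set of both replicates the count was 53 (57.6%) against 21.4% of all genes. Replicate 1 alone gave 38 (41.3%) against 13.3%, and replicate 2 alone gave 59 (64.1%) against 22.6%. Both replicate sets held a summit at 38 of the genes, against 12.7% of all genes. The share was above that of all genes in each replicate. In the ranked lists, which hold peaks with no threshold on repeatability, 74 genes (80.4%) had a peak in replicate 1 and 79 (85.9%) in replicate 2, against 66.7% and 69.2% of all genes. The ranked list of both replicates together reached 76 genes (82.6%), against 70.5%. Read depth is not given in the files used here, so the weakest sites that could be called are unknown.

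**Figure D1:**
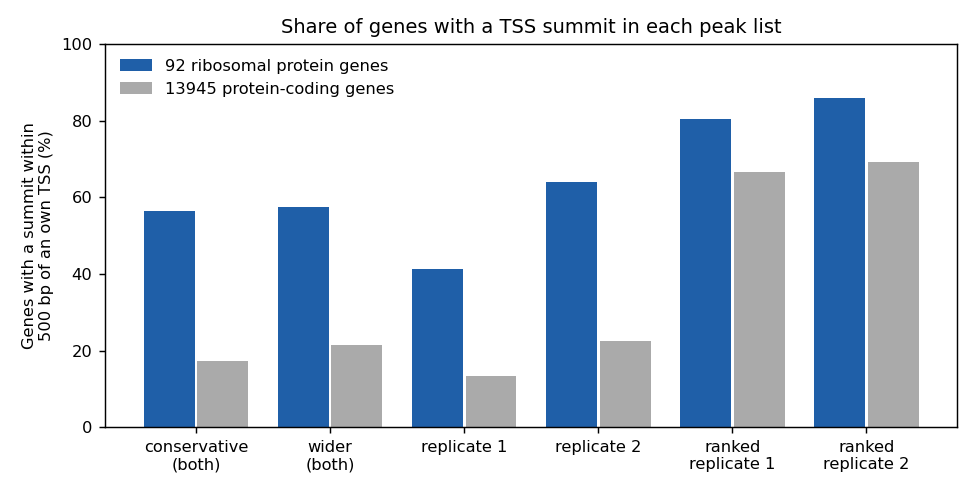
Share of genes (percent) with a summit within 500 bp of an own TSS in each peak list, for the 92 ribosomal protein genes (blue) and all 13945 protein-coding genes (grey). The blue bar is the taller in all 6 lists, at 56.5% against 17.2% in the conservative set, and the bars are closest in the ranked lists.

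Most of the signals were in the middle of the range of the set. The signal is the value given by the authors' peak caller, has no stated normalization, and is used here only within a list. Over the 52 genes the strongest TSS peak had a lowest signal of 81.0, a median of 183 and a highest of 619. Over all 2395 genes with a TSS summit the median was 216 and the highest 4246. Of the 52 peaks, 14 reached a signal of 273, the level that marks off the upper 25% of the conservative set, and of the strongest TSS peaks of all genes 38.9% reached it. A further 20 lay between 160, the median of the set, and 273, against 29.1% of the strongest TSS peaks of all genes. Between 104 and 160 lay 11, against 19.6%, and below 104 lay 7, against 12.4%. Ranks among the 4998 main-arm peaks ran from 324 to 4454.

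The strongest signals fell on genes of both subunits. RpL32, a large subunit gene widely used as a reference in expression assays, had a peak at 30046122 to 30046480 on 3R (dm6) with a signal of 619, and overlapping peaks of 215 in replicate 1 and 407 in replicate 2. RpS27 of the small subunit (3R, 25247382 to 25247687) had 608, with 205 and 393. RpL34b (3R, 9401166 to 9401541) had 595, with 234 and 360. All 3 were in the upper part of the range in each replicate. RpL7 (2L, 10200908 to 10201163) had 523, with 172 and 350, and its summit lay 37 bp after the start, in the 5′ UTR. RpL23A (3L, 1668616 to 1668890) had 457, with 173 and 289. RpS20 (3R, 20821903 to 20822127) had 395, with 147 and 246. RpL7 and RpL23A were close in replicate 1 and further apart in replicate 2. RpL41 had 374, with 122 in replicate 1 and 249 in replicate 2. RpL14 had 358, with 90.2 and 267. RpL23 had 328, with 106 and 198. RpL14 was thus the lowest of these 12 genes in replicate 1. RpS28b had 307, with 122 and 182. RpS4 had 292, with 94.2 and 201. RpL28 had 290, with 115 and 165, the lowest of the 12 in replicate 2. All 12 overlapped a peak in both replicates. Genes with signals from 288 to 150 included RpL17, RpS21, RpL19, RpL26, RpL30, RpS16, RpS25, RpS29, RpL10Ab, RpLP0, RpS5a, RpL27A, RpL22, RpS23, RpL31, RpL8, RpS10b, RpL34a, RpS15Aa, RpL7A, RpS26, RpL36, RpS12, RpL13, RpL4 and RpL24. Genes with signals from 149 to 81.0 included RpS27A, RpS28a, RpS7, RpL11, RpLP0-like, RpL27, RpL3, RpL18, RpS6, RpL37-1, RpS19a and RpS18.

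**Figure D2:**
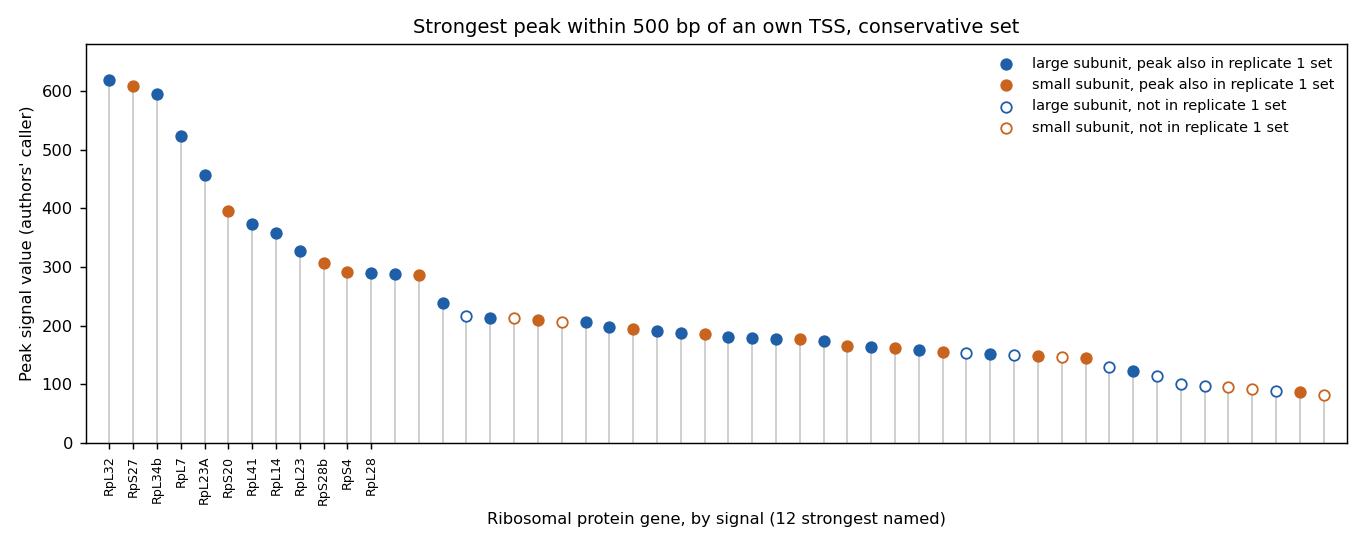
Signal of the strongest peak within 500 bp of an own TSS for the 52 ribosomal protein genes that have one, ordered by signal (x axis, the 12 strongest named; y axis, the authors' caller's value; blue large subunit, orange small subunit). Filled points overlap a replicate 1 peak, open points do not. The signals fall from 619 at RpL32 to 81.0, and 9 of the 13 lowest points are open.

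The subunits differed more over the whole locus than at the start site, and no test was made of either difference. Of the large subunit genes 31 of 54 (57.4%) had a TSS summit and of the small subunit genes 21 of 38 (55.3%), with median signals of 188 and 177 and median distances of 44.0 and 40.0 bp. Within the gene body and 2 kb on each side, a summit lay at 31 large subunit genes (57.4%) and 29 small subunit genes (76.3%), together 60 of 92 (65.2%) against 33.5% of all genes. The 8 genes with a locus summit but no TSS summit were all of the small subunit. The strongest such peak of each lay nearest to the start of another gene, so the difference came from peaks at neighbours. Of the stalk proteins, which recruit translation factors, RpLP0 had a TSS peak (signal 198, summit 7 bp after the start), while RpLP1 and RpLP2 had none. Of the genes for a ribosomal protein fused to ubiquitin, RpS27A had one (149) and RpL40 had none.

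The summits lay close to the start site. The median distance to the nearest own TSS was 43.0 bp (quartiles 27.0 and 86.0), against 157 bp (99.0 and 258) over all genes with a TSS summit. Within 50 bp lay 31 of 52 (59.6%), against 9.19% of all genes, and within 100 bp 41 (78.8%) against 25.7%. Most were upstream, 42 of 52 (80.8%) against 89.4%. By annotation 38 summits were upstream of the gene, 12 in a 5′ UTR and 2 in an intron. The 10 summits after the start all lay within 43 bp of it. RpL36 had its summit 1 bp and RpS23 2 bp before the start, and RpS21 5 bp after it. Replicate 1 alone and replicate 2 alone also gave medians of 43.0 bp, where all genes gave 167 and 141 bp. Among genes with 1 annotated TSS the median was 64.5 bp for 22 ribosomal protein genes and 153 bp for all genes. Among those with several it was 33.0 bp for 30 genes and 162 bp for all genes. The 3 genes with their strongest summit nearest to the limit of 500 bp were RpS6 (498 bp), RpL18 (413 bp) and RpL10Ab (273 bp). Weaker second summits lay 496 bp from the start at RpS12 and 442 bp at RpS19a. Just outside were RpS19b (924 bp), RpS3 (1546 bp) and RpS28-like (1634 bp).

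**Figure D3:**
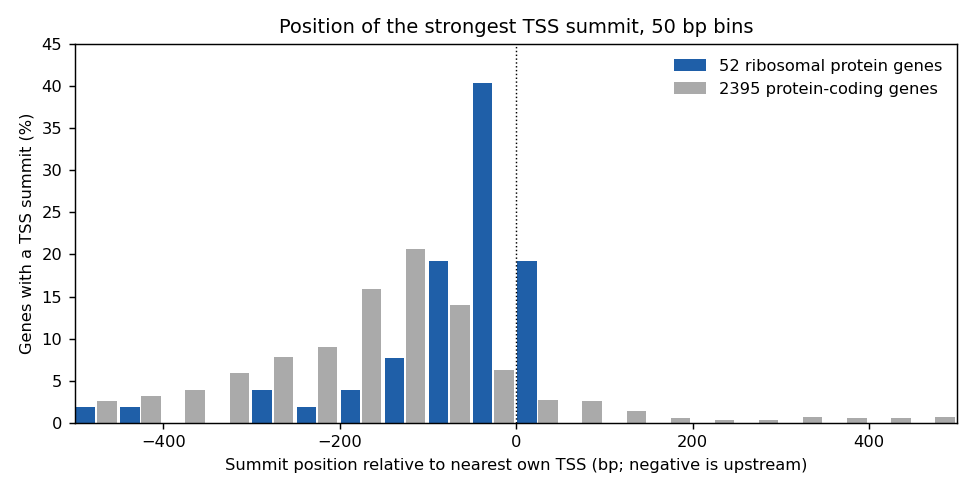
Position of the strongest TSS summit relative to the nearest own start (x axis, bp, 50 bp bins, negative is upstream) as a percent of the 52 ribosomal protein genes (blue) and of the 2395 protein-coding genes with a TSS summit (grey). The tallest blue bar, 40.4%, is the bin ending at the start, where the grey bar is 6.30%, and the tallest grey bar, 20.7%, is from 150 to 100 bp upstream.

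Many of these summits lay near the start of another gene as well. A TSS of another protein-coding gene was within 500 bp of the summit at 30 of the 52 genes, and at 7 it was nearer than the ribosomal protein TSS. A peak list cannot tell which of the genes such a site serves. Counted within 500 bp of the own TSS, 27 of the 52 genes had such a neighbour, and 1374 of all 2395 genes with a TSS summit. Close neighbours were thus no more frequent here than over all genes with a TSS summit. The 7 were not set beside a count over all genes. RpL13 shared its peak (2L, 9966998 to 9967361, signal 154) with Dref, the gene of the DREF factor, whose start was 49 bp from the summit while that of RpL13 was 133 bp away. The strongest of the 2 peaks at RpS6, whose protein is phosphorylated by S6 kinase, lay 498 bp from its start and 51 bp from that of bys, a gene of small subunit assembly. The second RpS6 peak (88.3) was 5 bp before its own start. The summit at RpL18 (413 bp) was nearer to Neos, that at RpS20 (167 bp) to CG17271 by 1 bp, and that at RpL32 (158 bp) to CG7943 at 151 bp. The start of RpLP0-like was 75 bp from its summit, and that of another gene 12 bp. RpL14 and Nelf-E, which encodes a subunit of the negative elongation factor that pauses RNA polymerase II, had starts 46 and 81 bp from 1 summit, RpL7 and Ripalpha 37 and 67 bp.

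Both kinds of ribosomal protein gene, with and without a close neighbour, had shares above those of all genes of the same kind. Of the 37 genes with another TSS within 500 bp of their own, 27 (73.0%) had a TSS summit, against 31.9% of all genes of that kind. Of the 55 without, 25 (45.5%) had one, against 10.6%. The median distance was 66.0 bp for the former and 40.0 bp for the latter, against 138 and 192 bp over all genes of each kind. Median signals were 180 and 186.

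Fewer of the TSS peaks were found in replicate 1 than in replicate 2. All 52 TSS peaks overlapped a peak of replicate 2 and 38 (73.1%) overlapped one of replicate 1, where 92.0% and 73.4% of all promoter peaks did. The conservative set was itself kept by the agreement of the replicates, which favours such overlap. In replicate 1 the 38 peaks had signals from 40.5 to 234 (median 81.4). In replicate 2 the 52 had signals from 47.8 to 407 (median 109). Spearman's rho between the replicate signals was 0.724 across the 38 peaks, which share the same 2 libraries. The summits of the replicates were 13.5 bp apart at the median and at most 67 bp. In order of signal, 13, 10, 11 and 4 genes of successive blocks of 13 were in both replicates, so the fall was not steady. RpL26 (216), RpS16 (213) and RpS29 (206), all above the median signal, were absent from the replicate 1 set, and RpL26 had no peak at its start in the ranked list of replicate 1 either. RpL10Ab, at 116 in replicate 1 and 79.7 in replicate 2, had a higher rank in replicate 1 (1313 of 3929 main-arm peaks) than in replicate 2 (3038 of 5544). RpS21 had the opposite order, with ranks of 2354 and 854. The 14 genes absent from replicate 1 included RpL26, RpS16, RpS29, RpL13, RpL24, RpS28a, RpL11, RpL27, RpL3, RpL18, RpS6, RpL37-1 and RpS18.

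**Figure D4:**
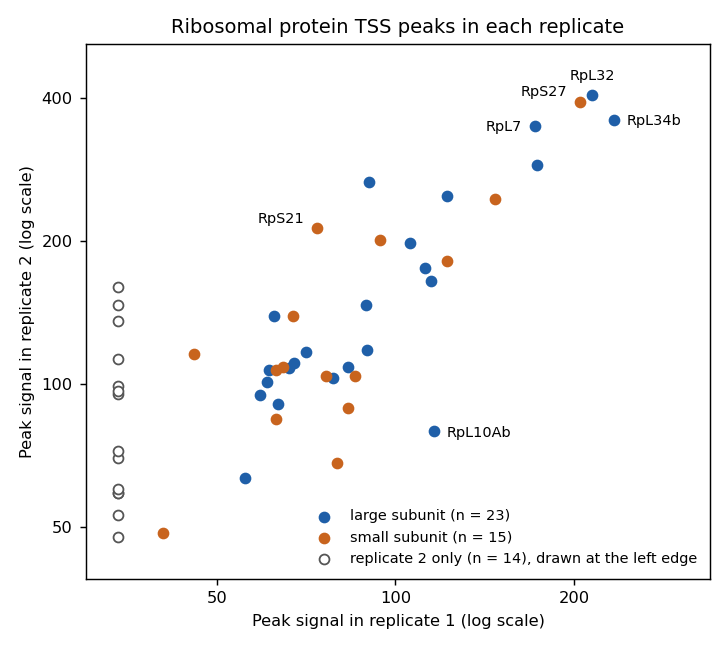
Signal of the peaks that overlap each ribosomal protein TSS peak in replicate 1 (x axis, log scale) and replicate 2 (y axis, log scale), 23 large subunit (blue) and 15 small subunit genes (orange). The 14 open points, drawn at the left edge, have no replicate 1 peak. RpL32, RpS27, RpL34b and RpL7 are high in both, and RpL10Ab is low in replicate 2 for its replicate 1 signal.

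The 40 genes without a conservative TSS summit fell into 3 sorts. At 7 of them the replicate 2 set had a summit and the replicate 1 set had none, among them RpL12 (signal 62.1, 9 bp from the start), RpL36A (92.8, 3 bp), RpL39 (39.6, 10 bp), RpS14b (64.3, 20 bp) and RpS30 (47.1, 24 bp). RpL36A was also in the wider set. None of the 40 had a summit in the thresholded set of replicate 1. A further 24 had a peak at the start in the ranked list of at least 1 replicate, namely RpL10Aa, RpL13A, RpL24-like, RpL29, RpL35, RpL35A, RpL37-2, RpL40, RpL5, RpL6, RpL7-like, RpLP1, RpLP2, RpS10a, RpS13, RpS15, RpS15Ab, RpS19b, RpS2, RpS24, RpS28-like, RpS3, RpS5b and RpS9. Apart from RpL13A, the lowest global irreproducible discovery rate of each in the replicate lists ran from 0.0112 at RpL35 to 0.885 at RpS3 and RpS13. None of these was thus at 0.01 or below. Shares over all genes without a conservative TSS summit were not counted for the 7 or the 24. The ranked lists of replicates 1 and 2 reached 66.7% and 69.2% of all genes, those with a TSS summit included. The remaining 9, RpL10, RpL15, RpL21, RpL22-like, RpL37A, RpL38, RpL9, RpS14a and RpS3A, had none even there.

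RpL13A passed the threshold but was not kept. Its peak in the joint ranked list (3R, 5624201 to 5624564, summit 91 bp upstream) had a signal of 168 and a global irreproducible discovery rate of 0.00330, where the set was kept at about 0.01. In the ranked list of replicate 1 its best peak had a rate of 0.0459, over 0.01. In replicate 2 its peak had a rate of 1.0e-05, again without a place in the thresholded set. It was the 1 ribosomal protein gene among 99 main-arm peaks left out in this way, for a reason the files do not give. With such peaks included, 53 of the 92 genes had a TSS summit.

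Some of the unmarked genes lay far from any peak. For 6 of the 40 (15.0%) the nearest summit of the conservative set was over 100000 bp from the start, against 4.13% of all genes without a TSS summit. These were RpL15 (4353125 bp), RpL38 (1536428 bp), RpS3A (740335 bp), RpL5 (669178 bp), RpL21 (380361 bp) and RpL10 (181341 bp). RpL5, RpL15 and RpL38 are known as genes of pericentromeric heterochromatin, and RpS3A is on the small chromosome 4, where 2 of 80 genes (2.50%) had a TSS summit. How repeats near these genes affect the alignment was not tested.

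Copies of the same ribosomal protein differed in their peaks. By symbol, 27 genes formed 13 families of copies. In 9 families exactly 1 copy had a TSS summit, in 3 families 2 copies had one, and in 1 family none had. RpL22 (188) was marked and RpL22-like, known from the germ line, was not. The same held for RpS5a (195) against RpS5b and for RpS19a (86.2) against RpS19b, whose second copies are known from the female germ line. It also held for RpL10Ab (206) against RpL10Aa, RpS10b (177) against RpS10a, RpS15Aa (166) against RpS15Ab and RpL37-1 (87.8) against RpL37-2. Both copies were marked for RpL34 (RpL34b 595, RpL34a 174), for RpS28 (RpS28b 307, RpS28a 147, but not RpS28-like) and for RpLP0 (198) with RpLP0-like (123). RpL7 (523) and RpL24 (150) were marked while RpL7-like and RpL24-like were not. The yeast counterparts of RpL7-like, RpL24-like and RpLP0-like are known as assembly factors of the large subunit. The neighbouring copies RpS14a and RpS14b had no conservative summit. A peak of replicate 2 lay at RpS14b (64.3), while RpS14a had none in the ranked list of either replicate. How reads were placed between such copies was not tested. Among genes with no copy in the list 37 of 65 (56.9%) had a TSS summit, and among the 27 copies 15 had, a similar share. Whether 9 split families are more than such a share would give was not tested.

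At the 8 genes with a peak in the locus but not at their start, the nearest start was that of another gene. They included RpS13 (signal 326), RpS3 (259), RpS5b (208), RpS15Ab (194), RpS19b (156), RpS9 (114) and RpS28-like (91.6). The RpS13 peak was 152 bp from the start of CG7627, that of RpS15Ab 48 bp from CG12325 and that of RpS5b 63 bp from Nup93-2. Every TSS summit also lies in the locus. A locus summit was at 4678 and a TSS summit at 2395 of all 13945 genes, and at 60 and 52 of these 92. Among genes without a TSS summit, a locus peak was thus about as frequent here as over all genes. The higher locus share of ribosomal protein genes came from their TSS summits. A further 14 genes had both a TSS peak and another peak in the locus, and were not set beside all genes. The strongest of the other peaks was weaker than the TSS peak at 9 and stronger at 5. RpL32 had 619 at its start and 167 elsewhere, and RpL34b had 595 and 238. RpL3 had a signal of 101 at its start and 910 at the start of CG17726, and RpL31 had 180 at its start and 703 at that of CG1827. RpS19a had 86.2 at its start and 593 at that of mthl1.

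The start regions carried the motifs known for ribosomal protein genes, both with and without a summit. In the window from 250 bases before to 50 after the canonical start, the DREF word TATCGATA was in 28 of 92 genes (30.4%), against 8.94% of 13944 genes with a canonical start. It was in 18 of the 52 genes with a TSS summit (34.6%) and 10 of the 40 without (25.0%). The M1BP word GGTCACACT was in 9 genes (9.78%), against 5.87% of all genes, and the E-box CACGTG, bound by Myc, in 12 (13.0%) against 4.29%. TATAAA was in 42 (45.7%) against 45.3%. The GAGA factor word GAGAGAG was in 0 of the 92 against 6.21%. The Gli-type core CCACCCA and the Zic-type core CCCGCTG, named for zinc finger factors of the same superfamily as lmd, were in 1 gene each (1.09%), against 2.96% and 2.14%, and CCCCCC was in 2 (2.17%) against 2.90%. These words were searched on both strands, and none contains another. The TCT initiator stood at 41 canonical starts (44.6%), against 3.52% of all genes. It was in 24 of the 52 genes with a summit (46.2%) and 17 of the 40 without (42.5%). With any annotated start the count was 57 (62.0%) against 5.13%.

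Outside the ribosomal protein genes, the short words searched as TCT initiator at the canonical start did not go with a higher share of summits. How many of these matches act as initiators was not tested, so the shares do not speak to the initiator itself. Of 450 other genes with such a word, 75 (16.7%) had a TSS summit, and of 13402 without, 2268 (16.9%). The median distances were 177 and 158 bp. Those of ribosomal protein genes were 45.5 bp for the 24 with the initiator at the canonical start and 41.5 bp for the 28 without. RpL32 and RpL34b are among the 28, since the initiators printed for them stand at another annotated start.

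Within 100 bp of the summit the DREF word was at 15 of 52 ribosomal protein summits (28.8%), against 5.50% of 1910 promoter summits, and the M1BP word at 6 (11.5%) against 2.04%. Together they marked 20 summits (38.5%), against 7.33%. Within 50 bp these shares were 28.8% and 2.72%, and within 200 bp they were 40.4% and 15.9%. At RpL41 the DREF word was centred on the summit (0 bp), and at RpL36 and RpS12 it was 10 bp away. The M1BP word was 1 bp from the summit at RpS23 and 30 bp at RpLP0. RpL27 held both words. The E-box was at 6 summits (11.5%) against 2.41%. TATAAA was at 8 (15.4%) against 38.5%, and the Gli-type core at 0 against 2.04%. The summit windows of ribosomal protein genes had a median GC content of 43.8%, and those of all promoter summits 33.8%. The start windows of ribosomal protein genes had 37.5% and those of all genes 38.2%. Summits of ribosomal protein genes also lay closer to the start, so their windows took in more of the start region, where these words are frequent with and without a summit. The parts of base composition and of this distance in the word counts were not tested.

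**Figure D5:**
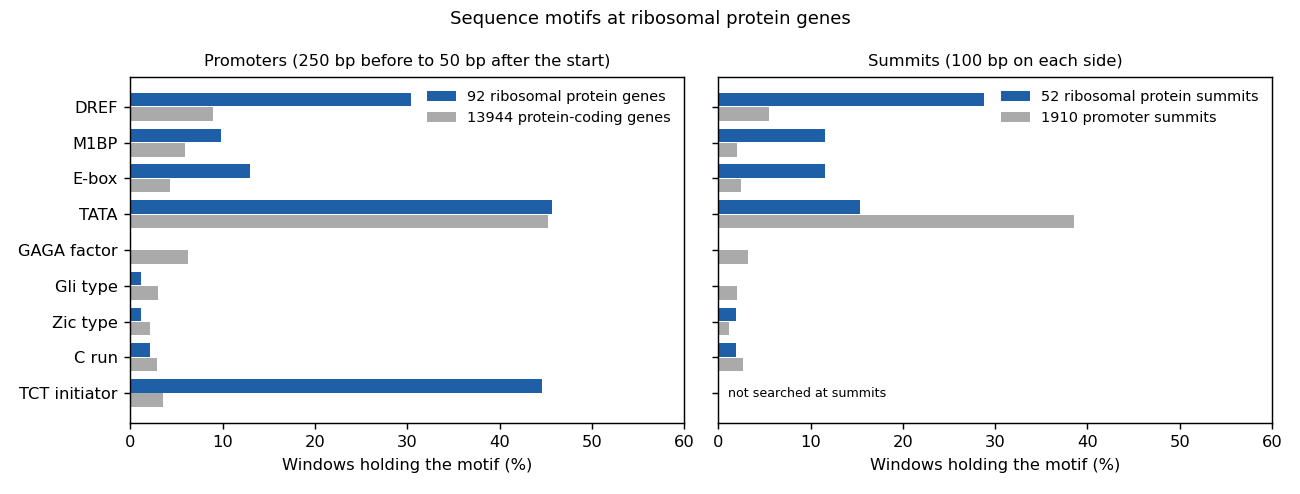
Percent of windows that hold each motif, in promoters (left, 92 ribosomal protein genes in blue and 13944 genes in grey) and at summits (right, 52 ribosomal protein summits in blue and 1910 promoter summits in grey). The DREF word stands out on both sides (30.4% against 8.94%, 28.8% against 5.50%), the TCT initiator in promoters (44.6% against 3.52%), and TATA at summits is lower in blue (15.4% against 38.5%).

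Genes of related function were set beside the 56.5% of cytoplasmic ribosomal protein genes with a TSS summit, with no test of the differences. Of 73 genes for mitochondrial ribosomal proteins 21 (28.8%) had a TSS summit, with a median signal of 229 and a median distance of 126 bp. Of 36 genes of ribosome assembly 10 (27.8%) had one, at a median signal of 224 and 112 bp. They were led by eIF6, which keeps the subunits apart (2365), and Ns2 (778). Of 11 genes of promoter factors 7 (63.6%) had one, with a median signal of 287 and a median distance of 151 bp. Among them were M1BP (287), pzg (526) and Chro (2650). The lists were not wholly separate. The peak counted for Dref among the promoter factors was that of RpL13, and the peak for bys in the assembly list was that of RpS6. The median distance was over 100 bp in each of these lists, where the 52 cytoplasmic genes had 43.0 bp.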

How the data were processed

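Chromatin immunoprecipitation sequencing was deposited as peak lists in dm6 coordinates, per the labels. The aligner and peak caller were not given in sources used here. The deposited signal is the authors' value per peak. The deposited score follows the irreproducible discovery rate (IDR) and was 830 to 1000 in the thresholded sets, a global IDR of at most about 0.01. The deposited ranked lists also give −log10 of the global IDR. The deposited summit offset placed each peak. Fragments were 200 to 800 bp, per the labels. Read depth is unknown.

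Genes came from annotation release 115 and sequence from the Release 6 genome of RefSeq, whose arms have the same lengths. Of the 6 main arms all protein-coding genes were used. A TSS summit lay within 500 bp of any annotated TSS of the gene, and a locus was the gene body with 2 kb on each side. A gene's strongest TSS peak was described. Replicate peaks were matched by an overlap of at least 1 bp. Counts were set beside those over all genes, with no test, since 1 group was sampled and peaks are not replicates. Scripts (Python 3.11.15, numpy 2.4.6, scipy 1.17.1) were tested on simulated data. The genes, lists, motifs and the rule for named genes (highest signal, copies, genes nearest to the distance limit, genes without a summit) were chosen with earlier results of these data known. Of 12 listed promoter factors, 11 matched the annotation. Values of a few genes are counted but not reported here by name.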

Additional observations from a re-analysis of the deposited data

How the results depend on the processing

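Of 67 alternative values of the main results, 56 stayed within 1.5 times a count or within the SD of the replicates, a wide margin for counts. Not all were free to move, since the peaks of a replicate taken alone overlap that replicate by definition. The margin takes in the 38 genes with a TSS summit without replicate 2, beside 52, and the 57 genes with a TCT initiator at any start, beside 41. The number of genes with a TSS summit ran from 38 to 59 over all alternatives. With no flank, 14 genes in place of 60 had a summit in the gene body, since most summits lay upstream. The median signal was 81.4 to 107 in the replicates alone, over 38 and 59 genes, and 206 at a global IDR of at most 0.001, which keeps the stronger peaks. Both replicates gave a median distance of 43.0 bp, so every other value counts as moved. It was 41.0 bp within 250 bp, 44.0 bp within 1000 bp, 44.0 bp from the 5′ end of the gene record and 38.5 bp where the own TSS was nearest. Chosen after the data were seen, genes with no close neighbour gave 40.0 bp and genes with 1 TSS 64.5 bp. Over all summits, not only those at promoters, the DREF and M1BP words marked 3.22% in place of 7.33%. Of the 12 strongest genes 9 kept a TSS summit in each of 8 alternatives. RpL32 and RpS20 lost it where the own TSS had to be nearest and RpL23 within 250 bp. No paired analysis was possible because there was 1 group. Unknown depth limits the statements on genes without a peak.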

Other observations

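Ribosomal protein genes that host small nucleolar RNAs, guides of ribosomal RNA modification that are spliced out of introns, had TSS summits at 21 of 28, and the other ribosomal protein genes at 31 of 64. Of all 84 protein-coding hosts, these 28 with their 21 included, 39 (46.4%) had one. The largest host here, RpS5a, has 14 such genes in its body and a peak of signal 195, while RpL32 and RpS27, with the highest signals, host none.

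By arm, a TSS summit was at 11 of 14 genes on the X (78.6%, against 17.7% of all genes there), at 10 of 14 on 3L (71.4% against 18.4%), at 13 of 23 on 3R (56.5% against 18.2%), at 10 of 21 on 2R (47.6% against 15.6%) and at 8 of 19 on 2L (42.1% against 16.3%). The X had the highest share but the lowest median signal, 166, with 174 to 211 on the other 4 arms. No test was made of these differences.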
